A study of Mus musculus with 6 samples.

Results

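The genes described here encode the matrix metalloproteinases (Mmp), the membrane-anchored ADAM proteases (Adam), the secreted ADAMTS proteases with their protease-free relatives (Adamts and Adamtsl), and the tissue inhibitors of metalloproteinases (Timp). They were taken from the array annotation by gene name alone: every probe other than a control whose gene name was one of these family names with its number. This gave 75 genes of 27672 on the array, and 130 probes of 41174. The families were chosen by the log2 ratios between the drugs, after those of several Adamts genes and of Mmp14 had been seen, so the ratios between the drugs are a description here and no test is read from them. Of the 75 genes, 74 passed the filter on dim probes, and Adamts13, the protease of von Willebrand factor, was not well above background on any array.

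The samples were kidneys of E13.5 embryos of CD1 mice, kept as explants and exposed for 6 hours to Scriptaid, a hydroxamic acid inhibitor of histone deacetylases, or to Nullscript, its inactive structural relative, each at 2.0 µg/ml. Per the labels, the kidneys of a pair went to different drugs, and how many embryos a replicate holds is not stated there. Each of 3 biological replicates was hybridised to 2 Agilent 4x44k arrays with the dyes exchanged, so that 3 arrays carried Scriptaid in Cy5 and Nullscript in Cy3, and 3 carried Scriptaid in Cy3 and Nullscript in Cy5. An explant holds ureteric bud, nephron progenitors, stroma, vessels and other cells, and fewer cells of a type and less RNA per cell cannot be told apart in its RNA.

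Metalloproteinases hold a zinc ion in their active site and are made as inactive zymogens, which other proteases activate. The Mmp enzymes cut collagens and other matrix proteins, the membrane-type members do so at the cell surface, and Timp proteins block the active site. ADAM proteases release the outer parts of membrane proteins such as growth factor precursors and Notch receptors, and ADAMTS proteases cut proteoglycans, procollagens and other matrix proteins outside the cell. In the embryonic kidney these enzymes are known for their part in the remodelling of matrix around the branching ureteric bud.

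The Scriptaid-labelled channel is the one whose dye field names that drug, and likewise for the Nullscript-labelled channel. Ratios are the log2 quotient of the first over the second, given as the mean of the replicates with its SD (n = 3 unless stated). The direction that these fields give is not settled. Gsn, the gelsolin gene that histone deacetylase inhibitors raise in other cells, had a ratio of -1.04 ± 0.14, and Ccnd1, the cyclin D1 gene that they lower in many cells, had 1.90 ± 0.19. If the drug names had been exchanged, each sign given here would turn. Per channel, 91.5% to 96.5% of the 43379 spots other than controls were well above background, and replicates 1 and 2 shared a slide while replicate 3 was on another. The fit across all 26489 genes called 46.2% of them, 22.5% higher in the Scriptaid-labelled channel and 23.7% higher in the Nullscript-labelled channel (limma, Benjamini-Hochberg adjusted p under 0.05). Its p-values measure the spread between these 3 replicates.

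Among the 74 genes measured, 23 were called higher in the Scriptaid-labelled channel and 12 higher in the Nullscript-labelled channel, beside the 22.5% and 23.7% of all genes. Since the drug ratios chose the set, nothing is read from these counts. In the Mmp family 7 of 21 genes were higher in the Scriptaid-labelled channel and 2 higher in the Nullscript-labelled channel, and in the Adam family 3 and 7 of 28. In the Adamts family, without the Adamtsl genes, 11 and 2 of 16 were called in these directions. Of the 4 Timp genes, 2 were called higher in the Scriptaid-labelled channel. The median ratio was 0.01 for Mmp, -0.02 for Adam, 0.30 for Adamts without Adamtsl and 0.27 for Timp, beside -0.01 for all genes. At least 2-fold differences were found for Mmp14, Adamts9 and Adamts5 among these genes, and for 3.04% of all genes. Which genes pass 2-fold depends on the processing. Under other choices the ratio of Adamts4 reached 1.02 and that of Adamts6 1.03, while those of Adamts9 and Adamts5 fell to 0.68 and 0.71.

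**Figure D1:**
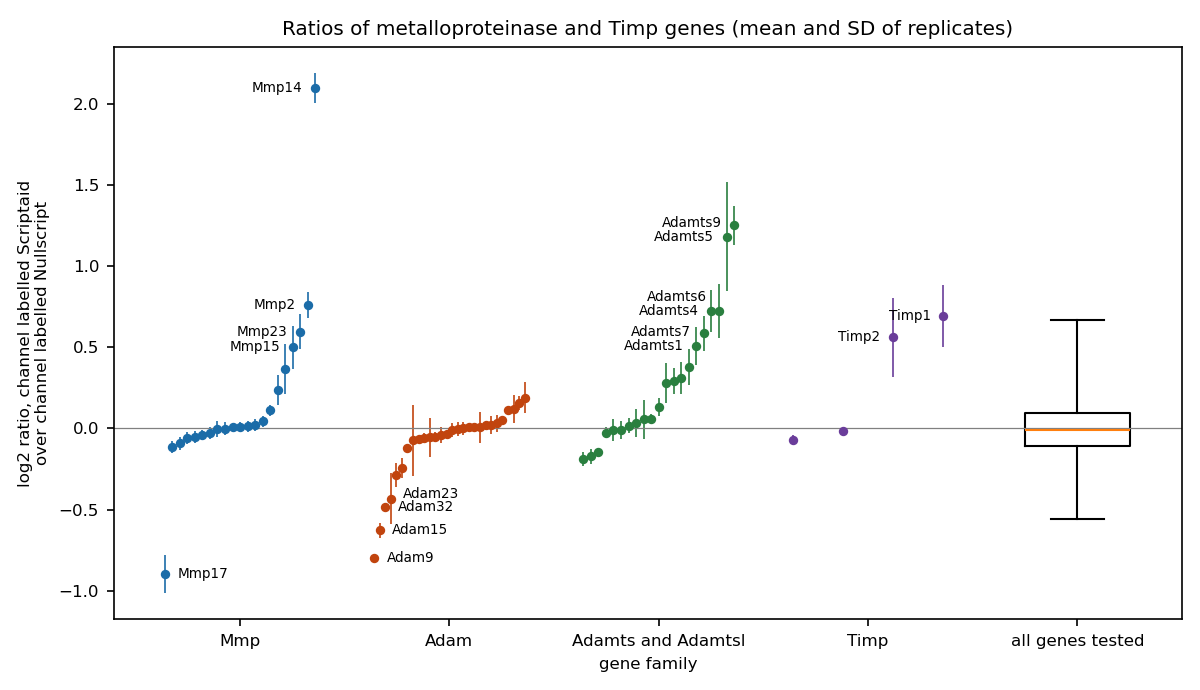
Mean log2 ratio of the Scriptaid-labelled channel over the Nullscript-labelled channel for each of the 74 genes (points, with the SD of the replicates as bars), sorted within each family, beside a box for all 26489 genes (line at the median, box from the 25th to the 75th percentile, whiskers at the 5th and 95th). Mmp14 lies at 2.10 and Mmp17 at -0.90, most Adam genes lie near 0 or lower, and the Adamts genes reach up to 1.25, while the whiskers for all genes end at -0.56 and 0.67.

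Promoters are shown for 3 genes higher in the Scriptaid-labelled channel, Mmp14, Adamts9 and Adamts1, and for 2 genes that differ from them, Adam15, which lay on the other side, and Mmp10, of the Mmp gene cluster on chromosome 9, whose ratio was near 0. Each runs from 250 bases before to 50 bases after the start of the gene in RefSeq (GRCm38.p6), 5′ to 3′ on the strand of the gene. Capitals mark the letters of an AP-1 site (TGANTCA), a GC box (GGGCGG) or a TATA box (TATAAA), searched on both strands. Mmp14 is at chr14:54431348-54431647, plus strand, Adamts9 at chr6:92943485-92943784, minus strand, Adamts1 at chr16:85803064-85803363, minus strand, Adam15 at chr3:89349979-89350278, minus strand, and Mmp10 at chr9:7502092-7502391, plus strand.
Mmp14: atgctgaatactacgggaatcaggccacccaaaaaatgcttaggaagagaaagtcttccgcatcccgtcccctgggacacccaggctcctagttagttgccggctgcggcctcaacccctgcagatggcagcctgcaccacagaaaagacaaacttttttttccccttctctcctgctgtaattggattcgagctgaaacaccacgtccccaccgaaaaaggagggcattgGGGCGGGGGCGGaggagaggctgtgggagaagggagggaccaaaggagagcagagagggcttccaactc
Adamts9: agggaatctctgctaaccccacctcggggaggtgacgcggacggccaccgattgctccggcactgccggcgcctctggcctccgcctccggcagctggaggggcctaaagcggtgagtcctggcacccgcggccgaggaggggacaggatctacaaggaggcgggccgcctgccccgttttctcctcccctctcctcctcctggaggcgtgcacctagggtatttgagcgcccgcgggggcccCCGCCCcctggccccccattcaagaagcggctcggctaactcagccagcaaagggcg
Adamts1: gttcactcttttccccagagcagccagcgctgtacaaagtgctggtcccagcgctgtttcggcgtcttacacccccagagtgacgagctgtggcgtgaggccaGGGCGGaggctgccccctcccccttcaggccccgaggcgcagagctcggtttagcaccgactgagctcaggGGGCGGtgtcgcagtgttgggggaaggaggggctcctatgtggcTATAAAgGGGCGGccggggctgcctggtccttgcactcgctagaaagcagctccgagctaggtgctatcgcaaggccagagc
Adam15: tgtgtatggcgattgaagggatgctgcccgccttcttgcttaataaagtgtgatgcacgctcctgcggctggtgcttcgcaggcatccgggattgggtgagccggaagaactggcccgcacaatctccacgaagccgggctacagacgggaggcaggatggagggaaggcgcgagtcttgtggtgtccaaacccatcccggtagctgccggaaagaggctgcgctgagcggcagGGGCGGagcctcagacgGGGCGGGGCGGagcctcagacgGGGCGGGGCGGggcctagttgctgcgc
Mmp10: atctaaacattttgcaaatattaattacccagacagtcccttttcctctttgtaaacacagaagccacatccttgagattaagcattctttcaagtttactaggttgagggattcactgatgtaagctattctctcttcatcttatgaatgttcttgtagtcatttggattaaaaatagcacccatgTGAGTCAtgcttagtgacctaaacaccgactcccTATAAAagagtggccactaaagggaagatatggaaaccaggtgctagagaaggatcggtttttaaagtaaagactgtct

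The 5 promoters differed in these letters. Mmp14 held 2 GC boxes that touch each other, Adamts9 1, on the reverse strand, and Adam15 5, while Adamts1 held 3 GC boxes and a TATA box, and Mmp10 held an AP-1 site and a TATA box. RefSeq promoters were matched for 44 of the 75 genes, 49 promoters in all. The AP-1 letters stood in 11 of them (22.4%), against 7.81% of the 32851 mouse promoters in the table, the GC box in 26 (53.1%) against 35.7%, and the TATA box in 12 (24.5%) against 13.6%. A CCAAT box (CCAAT), not marked in the sequences, went the other way, in 15 (30.6%) against 37.4%. Of the 11 promoters with AP-1 letters, 7 belonged to Mmp genes of chromosome 9, namely Mmp1a, Mmp3, Mmp7, Mmp10, Mmp12, Mmp13 and Mmp20. These genes and Mmp8, also of chromosome 9, held TATA letters as well. A match is only a match of letters. The median number of CpG pairs in a 300-base promoter was 24.5 for Adamts and Adamtsl, 16.0 for Timp, 5.5 for Adam and 4.0 for Mmp, beside 7.0 for all promoters in the table. These medians cover parts of the families, with 12 Adamts and Adamtsl genes, 12 Adam genes, 16 Mmp genes and 4 Timp genes. No promoter was matched for Mmp2, Mmp17, Adam9, Adamts4, Adamts5 or Adamts6, among others.

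Mmp14, the transmembrane collagenase that activates the Mmp2 zymogen at the cell surface, had the largest ratio of the 74 genes. Its log2 intensities by the brightest probe were 15.23, 15.43 and 15.26 in the Scriptaid-labelled channel, against 13.15, 13.41 and 13.06 in the Nullscript-labelled channel, in replicates 1, 2 and 3. The ratio was 2.10 ± 0.09, a 4.29-fold difference. The levels of the channels lay far apart in all replicates. This probe was saturated in the Scriptaid-labelled channel on the 3 arrays with Scriptaid in Cy5. Its mean signals there, before normalization, were 65209, 64484 and 65207, against 5687, 7831 and 3586 in the Nullscript-labelled channel. The normalised ratios of these 3 arrays were 1.92, 2.03 and 2.27. Before normalization, the ratio of a saturated spot is only a lower limit. The normalised ratios also hold the loess correction and are not read as limits. On the 3 arrays with Scriptaid in Cy3 the probe was not saturated. Its mean signals there, before normalization, were 40569, 30238 and 37749 in the Scriptaid-labelled channel, against 12511, 10322 and 12303 in the Nullscript-labelled channel. The normalised ratios of these arrays were 2.24, 2.01 and 2.13. The 2 dye orientations thus lay near each other only after normalization. The dimmer second probe was saturated on no array and gave 1.11, 0.97 and 1.36, with a mean of 1.15 ± 0.19. Both probes were thus higher in the Scriptaid-labelled channel in every replicate, by sizes that differed. No other gene of the set had a saturated spot.

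The other membrane-type Mmp genes differed among themselves. Mmp15 and Mmp16 encode transmembrane relatives of Mmp14. Mmp15 had log2 intensities of 9.43, 9.09 and 9.25 in the Scriptaid-labelled channel, against 8.82, 8.74 and 8.71 in the Nullscript-labelled channel, and a ratio of 0.50 ± 0.13. Mmp16 had replicate ratios of 0.43, 0.19 and 0.48, with 0.17 by its second probe, and its levels in the channels did not overlap. Mmp24, the fourth transmembrane member, which is chiefly neural, had 0.01. Mmp17, which a GPI anchor holds in the membrane, lay on the other side: its log2 intensities were 10.16, 10.21 and 10.13 in the Scriptaid-labelled channel, against 11.17, 10.98 and 11.04 in the Nullscript-labelled channel. Its ratio of -0.90 ± 0.12 was the lowest of the set, a 1.86-fold higher level in the Nullscript-labelled channel, and its second probe gave -1.03 ± 0.19. The other GPI-anchored member, Mmp25, had 0.01. Mmp24 and Mmp25 fall outside the rule for named genes and were added after their values were seen.

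Both gelatinase genes were measured. Mmp2, gelatinase A and the best known target of Mmp14, had log2 intensities of 12.29, 12.16 and 12.27 in the Scriptaid-labelled channel, against 11.56, 11.46 and 11.42 in the Nullscript-labelled channel. The channels did not overlap, and the ratio was 0.76 ± 0.08. Mmp9, gelatinase B, averaged 9.02 ± 0.11 in the Scriptaid-labelled channel and 9.11 ± 0.09 in the Nullscript-labelled channel. These levels overlapped, and the replicate ratios of -0.13, -0.05 and -0.10 were not called, while its other probe gave -0.20, -0.11 and -0.15 and was called higher in the Nullscript-labelled channel. Whether Mmp9 was called thus depends on the probe. Mmp23, which is anchored at its amino end and shed by proprotein convertases, had replicate ratios of 0.67, 0.48 and 0.65 and a mean of 0.60 ± 0.11. Mmp28, epilysin, had -0.16, -0.09 and -0.10, with overlapping levels, and its second probe gave -0.02 and was not called.

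The collagenases, stromelysins and related enzymes with genes side by side on chromosome 9 were near 0. Mmp1a, Mmp8 and Mmp13, the collagenases, had ratios of 0.00, 0.04 and -0.04, Mmp3 and Mmp10, the stromelysins, 0.11 and -0.01, and Mmp7, Mmp12 and Mmp20 0.02, -0.06 and 0.01. These 8 genes were grouped because RefSeq lists them on that chromosome, a choice made after their values were seen. Mmp3 was called, at 0.11 ± 0.03. Of the 74 genes 11 had a signal under 3 times that of the negative control spots, among them Mmp3, Mmp8, Mmp12, Mmp13 and Mmp20. The ratios of these 11 genes rest on little signal above the negative controls. Outside the cluster, Mmp19 and Mmp21 had -0.03 and -0.06, also added after their values were seen.

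**Figure D2:**
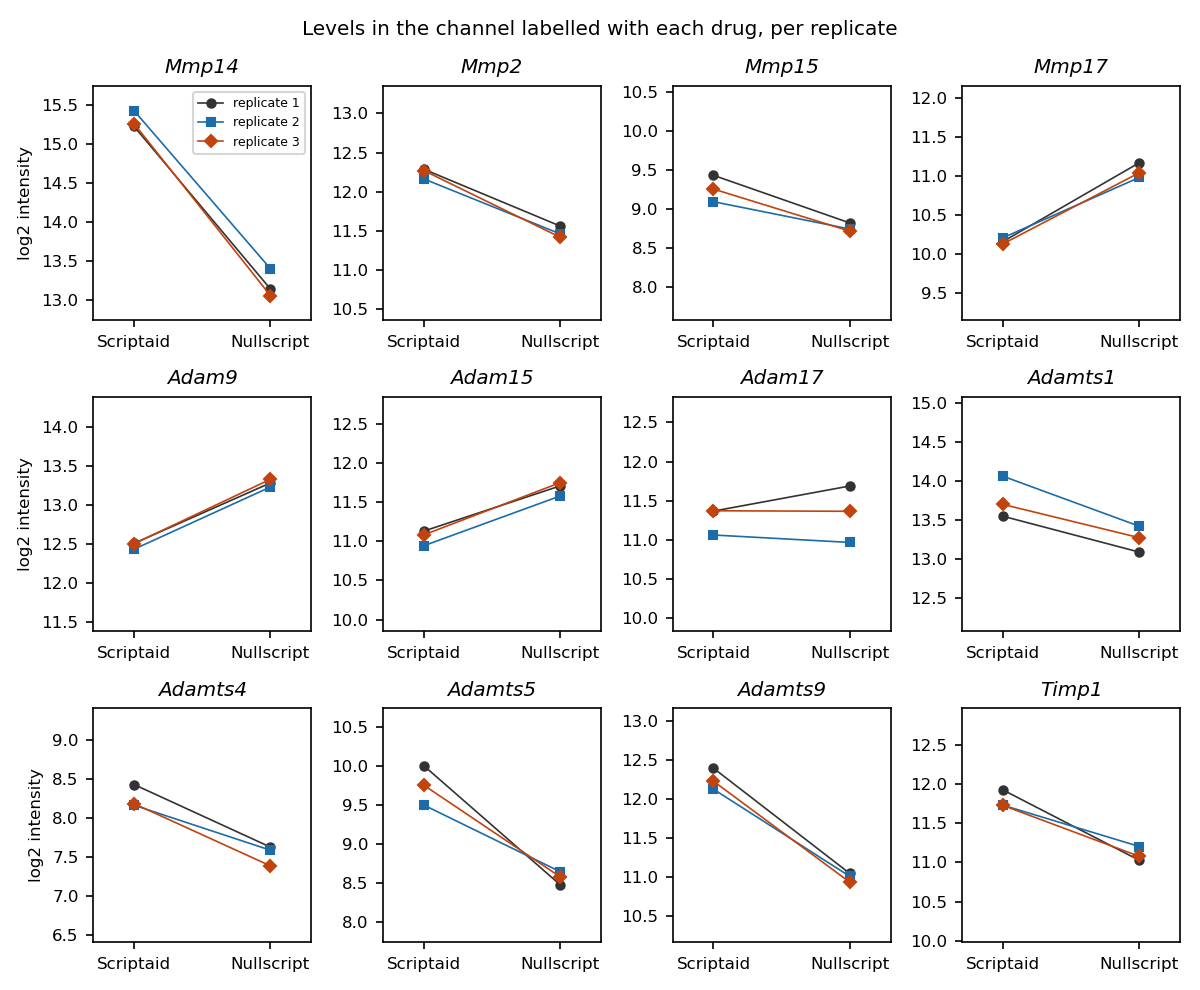
Normalised log2 intensity of 12 genes in the Scriptaid-labelled channel (left) and the Nullscript-labelled channel (right), with a line for each replicate, and the same 3 log2 units of height in each panel. The lines slope down to Nullscript for Mmp14, Mmp2, Mmp15, Adamts1, Adamts4, Adamts5, Adamts9 and Timp1, up for Mmp17, Adam9 and Adam15, and differ between replicates for Adam17.

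The proteoglycan-cleaving ADAMTS genes held the largest ratios after Mmp14. Adamts9, a versican-cleaving protease, had log2 intensities of 12.39, 12.12 and 12.23 in the Scriptaid-labelled channel, against 11.05, 11.01 and 10.93 in the Nullscript-labelled channel, with a ratio of 1.25 ± 0.12 or 2.38-fold. The channels lay apart in each replicate by the brightest probe. The other 2 probes were also called in that direction but gave 0.67 ± 0.25 and 0.13 ± 0.06. Adamts5, the main aggrecanase of mouse cartilage, had 10.00, 9.50 and 9.75 in the Scriptaid-labelled channel, against 8.48, 8.64 and 8.58 in the Nullscript-labelled channel, with replicate ratios of 1.52, 0.85 and 1.17 and a mean of 1.18 ± 0.34. Replicate 2 had the smallest difference for Adamts5, and its second probe gave 0.23 ± 0.10. Averaged over their probes, the ratios were 0.68 for Adamts9 and 0.71 for Adamts5, both under 2-fold. Adamts1, a protease of versican and aggrecan whose loss in mice malforms the kidney and ureter, had 13.55, 14.06 and 13.70 in the Scriptaid-labelled channel, against 13.09, 13.42 and 13.27 in the Nullscript-labelled channel. Its ratio was 0.51 ± 0.12, with 0.61 ± 0.20 by the second probe. Adamts4, the other classical aggrecanase, had 8.43, 8.17 and 8.19 in the Scriptaid-labelled channel, against 7.63, 7.59 and 7.39 in the Nullscript-labelled channel, and a ratio of 0.72 ± 0.13. Adamts1 and Adamts5 are neighbours on chromosome 16 in RefSeq. Adamts8 and Adamts15, neighbours on chromosome 9, had smaller ratios of 0.13 and 0.06, the first of them called, with 0.17 (called) and 0.02 (not called) by its other probes. Adamts8 and Adamts15 were added after their values were seen, and the signal of Adamts8 was under 3 times that of the negative controls.

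The remaining ADAMTS genes were mixed. Adamts6, which acts on extracellular matrix in the developing heart, had log2 intensities of 8.26, 7.64 and 8.06 in the Scriptaid-labelled channel, against 7.37, 7.09 and 7.32 in the Nullscript-labelled channel, with no overlap and a ratio of 0.72 ± 0.17. Adamts7 and Adamts12, which cut cartilage oligomeric matrix protein, had 0.59 ± 0.11 and 0.28 ± 0.12, and Adamts10, Adamts18 and Adamts19 had 0.29, 0.31 and 0.38. In 3 of these genes other probes did not show the difference: -0.03 for Adamts18, 0.00 for 1 of the other 2 probes of Adamts19, whose remaining probe gave 0.39, and -0.11 and 0.01 for Adamts12. These 5 fall outside the rule for named genes and were added after their values were seen. Adamts2, the procollagen I N-proteinase, had replicate ratios of -0.12, -0.20 and -0.19 by its brightest probe, while its other 3 probes gave -0.11, -0.03 and 0.23. The sign for Adamts2 therefore depends on the probe. Adamts16, known in the developing kidney and as a fibronectin protease, had -0.14, -0.14 and -0.15 by the brightest probe and 0.96, 0.75 and 0.77 by the second. These probes were called in opposite directions, and the mean over both was 0.34. Adamtsl5, a fibrillin-binding relative with no protease domain, had -0.21, -0.14 and -0.22 by its brightest probe and -0.16 and -0.07 by the others, the last not called. Adamts3, another procollagen protease, had -0.01, and the other 4 Adamtsl genes lay between -0.03 and 0.06, all 5 added after their values were seen.

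Among the ADAM genes of somatic tissues, the sheddases Adam9 and Adam15 were higher in the Nullscript-labelled channel. Adam9, a widely expressed sheddase, had log2 intensities of 12.51, 12.44 and 12.51 in the Scriptaid-labelled channel, against 13.28, 13.23 and 13.33 in the Nullscript-labelled channel, with a ratio of -0.80 ± 0.03 and replicate ratios of -0.77, -0.80 and -0.83. Adam15, which carries an integrin-binding RGD motif in humans, had 11.13, 10.94 and 11.08 in the Scriptaid-labelled channel, against 11.71, 11.58 and 11.75 in the Nullscript-labelled channel, and -0.63 ± 0.05. In both genes the channels did not overlap. The second probe of Adam15 gave -0.14 ± 0.13 and was not called. Adam10, the main sheddase of Notch receptors, had 8.29, 7.80 and 8.03 in the Scriptaid-labelled channel, against 8.37, 7.81 and 7.92 in the Nullscript-labelled channel, levels that overlapped, and a ratio of 0.01 ± 0.10. Adam17, which releases tumour necrosis factor and EGF receptor ligands, had 11.37, 11.06 and 11.37 in the Scriptaid-labelled channel, against 11.69, 10.96 and 11.36 in the Nullscript-labelled channel. Its replicate ratios of -0.32, 0.10 and 0.01 disagreed in sign, and the second probe showed the same order, -0.31, 0.13 and 0.03. On single arrays the ratios of Adam17 were -0.43, 0.28 and -0.24 with Scriptaid in Cy5 and -0.21, -0.09 and 0.25 with Scriptaid in Cy3. Replicate 1 was thus the one with a clear difference in both dye orientations. Adam12, which sheds heparin-binding EGF, had 0.18, 0.10 and 0.18 with overlapping levels and a signal under 3 times the negative controls, and its second probe, at 0.09, was not called. Adam8, a leukocyte sheddase, had -0.29, and Adam28 and Adam33 had -0.06 and -0.01, these 3 added after their values were seen.

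Most of the other ADAM genes are known from the male reproductive tract or from neurons and had small ratios. Adam32, a testis gene, had log2 intensities of 7.17, 7.05 and 7.51 in the Scriptaid-labelled channel, against 7.63, 7.56 and 7.99 in the Nullscript-labelled channel, and a ratio of -0.49 ± 0.02. Adam1a, of the sperm protein fertilin, had replicate ratios of 0.29, 0.09 and 0.19, and Adam11, a neural member without protease activity, had 0.21, 0.05 and 0.09 by its brightest probe, which was not called. Of its other probes, 1 gave 0.18, 0.16 and 0.19 and was called higher in the Scriptaid-labelled channel, and 1 gave 0.06 and was not called. The neural Adam23 and Adam22 were added after their values were seen. Adam23 had -0.43 by its brightest probe and -0.02 and 0.05 by the others, and Adam22 had 0.03. In RefSeq, Adam18, Adam3, Adam5, Adam32 and Adam9 follow each other on chromosome 8. Their ratios in that order were -0.05, -0.24, -0.12, -0.49 and -0.80, by the brightest probe of each gene. The second probes of Adam5 and Adam18 lay above 0, at 0.07 and 0.02, and were not called. The run was picked after its values were seen. Of 6 spermatid and testis marker genes, 1 was called, beside 46.2% of all genes called in either direction. It was Zpbp, higher in the Scriptaid-labelled channel at 0.12 ± 0.06, with a signal of 2.24 times that of the negative controls. The summed intensities of the 6 genes were 3446 to 3626 in the Scriptaid-labelled channel and 3372 to 3753 in the Nullscript-labelled channel. The 16 Adam genes of the reproductive tract had a median ratio of 0.00, and those not named above lay between -0.07 for Adam6 and 0.11 for Adam4, a pair named after its values were seen.

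All 4 inhibitor genes passed the filter on dim probes. Timp1, a secreted inhibitor, had log2 intensities of 11.93, 11.73 and 11.73 in the Scriptaid-labelled channel, against 11.03, 11.20 and 11.08 in the Nullscript-labelled channel, and a ratio of 0.69 ± 0.19, with 0.61 and 0.57 by its other probes. Timp2, which joins Mmp14 and the Mmp2 zymogen in one complex, had a value in replicates 1 and 3 only, because a spot in replicate 2 carried an outlier mark. It had 14.13 and 14.14 in the Scriptaid-labelled channel, against 13.74 and 13.40 in the Nullscript-labelled channel, and its ratio was 0.56 ± 0.25 (SD, n = 2). On the array of replicate 2 without a mark the ratio of Timp2 was 0.02, and with marked spots kept its mean was 0.44. Timp3, which binds to the matrix and also inhibits Adam17 and aggrecanases, had no value in replicate 1 for the same reason. Its ratios in replicates 2 and 3 were 0.00 and -0.04. Timp4 had -0.05, -0.06 and -0.11, which was not called. Timp1 and Timp2 thus lay on the side of Mmp14 and Mmp2, and Timp3 and Timp4 near 0.

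**Figure D3:**
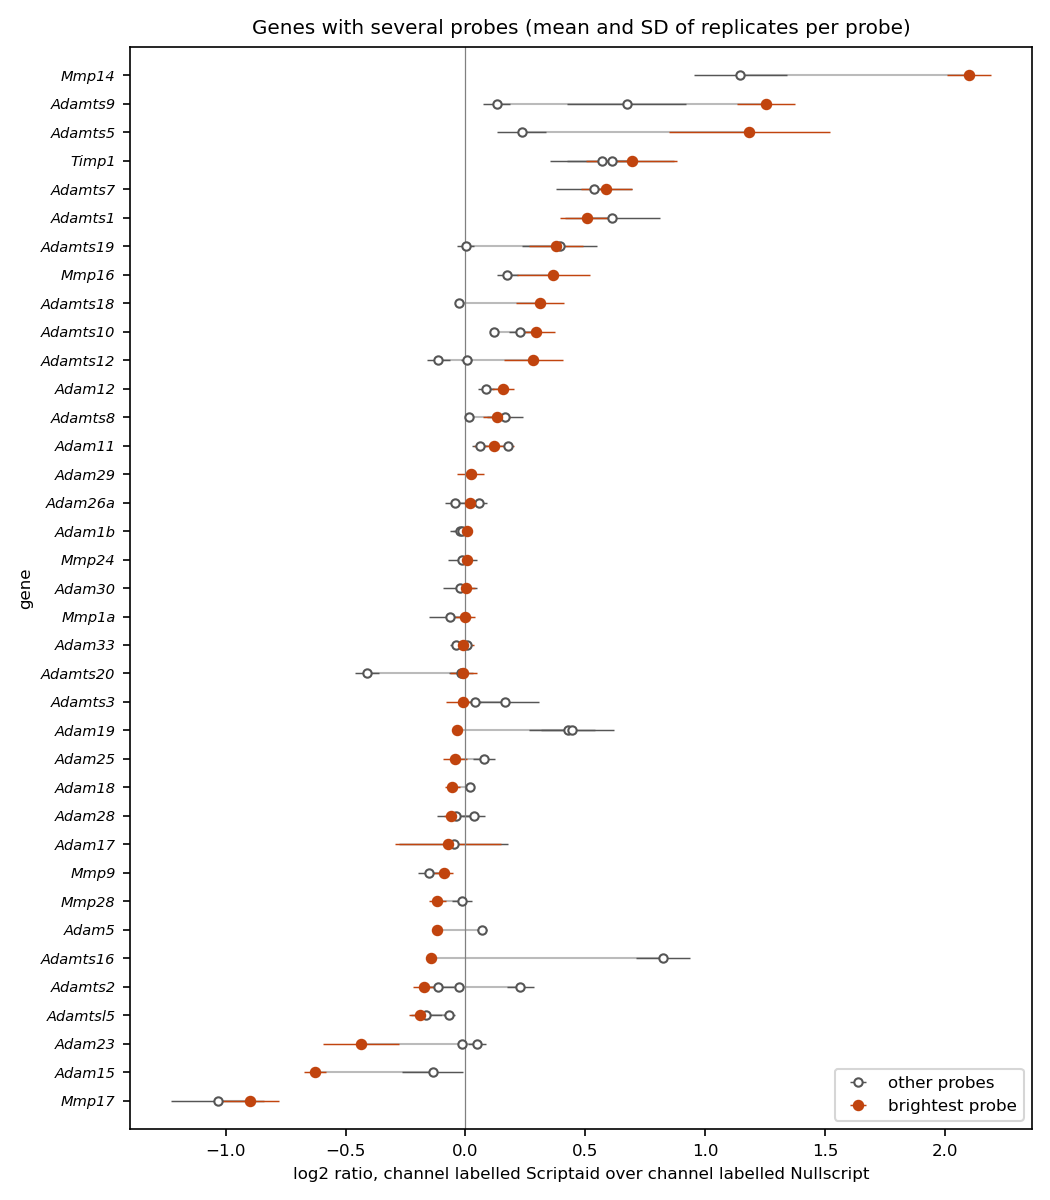
Mean log2 ratio of every probe of the 37 genes with several probes (filled points, the brightest probe, used for the gene, and open points, the others, with the SD of the replicates as bars), sorted by the ratio of the brightest probe. Probes of Timp1, Adamts1, Adamts7 and Mmp17 lie close together, those of Mmp14, Adamts9 and Adamts5 lie up to 1.12 apart on the same side of 0, and those of Adamts16 lie on both sides.

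The agreement of probes sets how firmly a gene can be described. Of the 37 genes with several probes, 21 had 1 sign by all of them. The other 38 of the 75 genes had a single probe, so that no second probe could be compared. Among them were Mmp2, Mmp15, Mmp23, Adamts4, Adamts6, Adam9, Adam32 and Timp2. All probes were called higher in the Scriptaid-labelled channel for 8 genes, which include Mmp14, Adamts9, Adamts5, Adamts1 and Timp1, and higher in the Nullscript-labelled channel for Mmp17. For Adamts2, Adamts12 and Adamts16 the probes were called in both directions. These counts were not made over all genes with several probes, so nothing is read from their size. Adam19, which falls outside the rule for named genes and encodes a sheddase of neuregulin, was not called by its brightest probe (-0.04) while the other probes gave 0.43 and 0.44 and were both called. Counted by probe, 41 of 129 were higher in the Scriptaid-labelled channel and 17 higher in the Nullscript-labelled channel, beside 23.5% and 21.8% of all probes tested.

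The dye effect does not depend on how the genes were chosen, and it was tested as 0.5 of the difference between the ratios of the 2 arrays of a replicate, Scriptaid in Cy5 minus Scriptaid in Cy3. At a limma adjusted p under 0.05, 5 of the 74 genes had a dye effect, beside 5.52% of all genes. In each of the 5 the channel in Cy5 read higher, and Adamts20 and Mmp11 are named here for that effect, outside the rule for named genes. The count was 1 by the processed signals or the series table, 2 by the mean over probes, 1 without replicate 1 and 11 without replicate 2. Adamts20, which cuts versican, had the largest effect, 0.29 (limma adjusted p = 0.00368). Its ratios were 0.33, 0.22 and 0.28 with Scriptaid in Cy5 and -0.23, -0.26 and -0.40 with Scriptaid in Cy3, so that the sign followed the dye in every replicate by this probe, the brightest, and its mean was -0.01. The other probes of Adamts20 gave -0.47, -0.39 and -0.37, called higher in the Nullscript-labelled channel, and a mean of -0.02, not called. Mmp11, stromelysin-3, had 0.50, 0.28 and 0.55 with Scriptaid in Cy5, but 0.06, -0.03 and 0.05 with Scriptaid in Cy3. Its dye effect was 0.21 (limma adjusted p = 0.016), and its ratio with Scriptaid in Cy3 was near 0. Adam32, Adamts7 and Adamts19 had dye effects of 0.18, 0.15 and 0.15 (limma adjusted p = 0.0187, 0.0459 and 0.038) and kept their sign in both orientations. Such an effect cancels in the mean of a replicate where it has the same size on its 2 arrays.

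**Figure D4:**
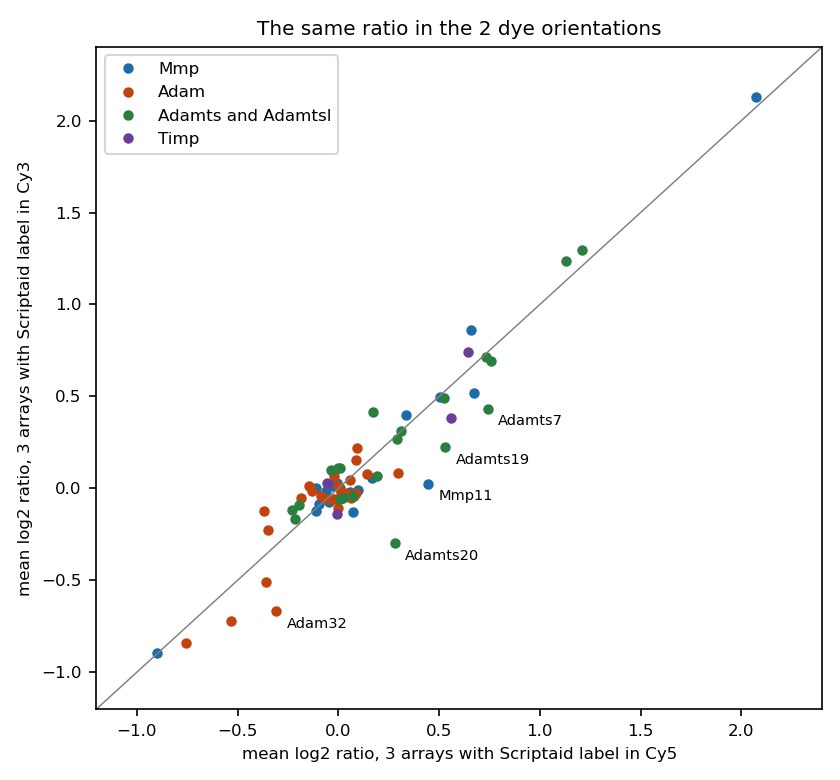
Mean log2 ratio of the Scriptaid-labelled channel over the Nullscript-labelled channel for the 74 genes on the 3 arrays with Scriptaid in Cy5 (horizontal) and the 3 with Scriptaid in Cy3 (vertical), with colours for the families and a grey line where both are equal. The 5 named genes, with a dye effect at a limma adjusted p under 0.05, lie to the right of the line, and Adamts20 has opposite signs.

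Genes that work with these proteases were followed in 6 lists, whose calls come from the same comparison and are likewise a description, to be read beside the 22.5% and 23.7% of all genes called in the 2 directions. Of 10 zymogen activators and plasmin system genes, 5 were higher in the Scriptaid-labelled channel and 3 higher in the Nullscript-labelled channel, with a median of 0.09. Furin, the convertase that activates Mmp14, had 0.75 ± 0.10 (replicates 0.68, 0.69 and 0.86), its relative Pcsk6 had 0.57 ± 0.08, and Plat, tissue plasminogen activator, had -0.47 ± 0.09. Among 11 other inhibitors and inducers, 2 were called in each direction, with a median of 0.00. Reck, a membrane-anchored inhibitor of Mmp enzymes, had -0.28 ± 0.13, Serpinf1, an extracellular serpin, 0.21 ± 0.07 and Spock3, a proteoglycan that inhibits membrane-type Mmp activation, 0.34 ± 0.23. The signal of Spock3 was under 3 times that of the negative controls.

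Regulators and substrates lay on both sides. Of 8 regulators of Adam10 and Adam17, 2 were higher in the Scriptaid-labelled channel and 6 higher in the Nullscript-labelled channel, with a median of -0.30. Rhbdf2, the iRhom2 gene, which has a part in Adam17 maturation, had replicate ratios of -1.26, -0.79 and -0.94. Rhbdf1, the iRhom1 gene, was called on the other side, at 0.43 ± 0.04. Tspan33 and Tspan15, tetraspanins that bind Adam10, had -0.67 ± 0.13 and -0.49 ± 0.10. Of 15 shed substrates, 4 were higher in the Scriptaid-labelled channel and 6 higher in the Nullscript-labelled channel (median -0.05). Cx3cl1, a membrane-bound chemokine, had -1.05 ± 0.27 and Hbegf, heparin-binding EGF, -0.73 ± 0.18, while Btc, the EGF family ligand betacellulin, had 0.67 ± 0.08. The signal of Btc was under 3 times that of the negative controls. Of 12 matrix substrates of ADAMTS proteases the counts were 4 and 5 (median -0.01). Vcan, versican, had 1.71, 1.11 and 1.43 in the replicates, on the side of Adamts1, Adamts5 and Adamts9, while Comp, cartilage oligomeric matrix protein, and Bcan, the brain proteoglycan brevican, had -1.16 ± 0.16 and -0.90 ± 0.25. Of 10 other metzincin genes and relatives tested, 3 and 1 were called (median 0.04), and Papln was not tested. Pappa, a protease of IGF-binding proteins, had 1.71 ± 0.20, Thsd4, an Adamts-like protein that binds fibrillin, 0.61 ± 0.17 and Bmp1, the procollagen C-proteinase, 0.57 ± 0.11.

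**Figure D5:**
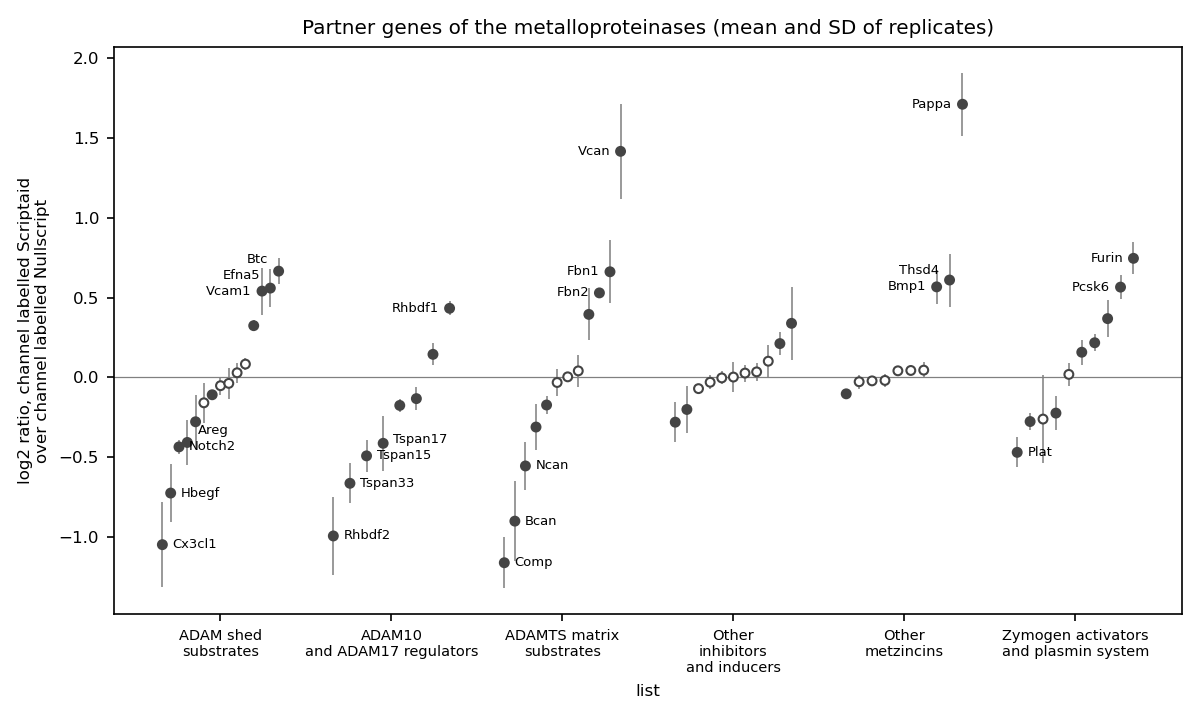
Mean log2 ratio of the Scriptaid-labelled channel over the Nullscript-labelled channel for the genes of the 6 lists of partners (points, with the SD of the replicates as bars), sorted within each list, filled where called and open where not. Pappa at 1.71 and Vcan at 1.42 are the highest, Comp at -1.16 and Cx3cl1 at -1.05 the lowest, and 6 of the 8 regulators of Adam10 and Adam17 lie below 0.

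Markers of the cell types in the explant moved with the same comparison, and their counts stand beside the 22.5% of all genes called higher in the Scriptaid-labelled channel and 23.7% in the Nullscript-labelled channel. Endothelial markers were higher in the Scriptaid-labelled channel for 6 of 7 genes, with summed intensities of 24631 to 25658 in the Scriptaid-labelled channel and 10897 to 13491 in the Nullscript-labelled channel. Stromal markers were higher there for 6 of 7, and Col1a1, saturated on 3 arrays in each channel, lay on the other side, with sums of 99375 to 105448 in the Scriptaid-labelled channel and 84719 to 96204 in the Nullscript-labelled channel. Nephron progenitor markers were higher there for 8 of 9, with sums of 46713 to 52244 in the Scriptaid-labelled channel and 23176 to 23935 in the Nullscript-labelled channel. Many Mmp and Adamts genes are known from stroma and vessels. For renal vesicle and early nephron markers 4 of 5 genes were higher in the Scriptaid-labelled channel, with sums of 16047 to 17708 in the Scriptaid-labelled channel and 11236 to 12911 in the Nullscript-labelled channel. For ureteric bud markers 3 of 7 were higher there and Cdh1 was higher in the Nullscript-labelled channel, with sums of 16723 to 19316 in the Scriptaid-labelled channel and 15710 to 17590 in the Nullscript-labelled channel. All 4 neuron markers were higher in the Nullscript-labelled channel, with sums of 2574 to 2916 in the Scriptaid-labelled channel and 4058 to 5175 in the Nullscript-labelled channel. Macrophage and leukocyte markers were called in both directions, 2 and 1 of 5, and red blood cell markers were higher in the Nullscript-labelled channel for 2 of 4. Their sums were 5638 to 6898 in the Scriptaid-labelled channel and 4390 to 5843 in the Nullscript-labelled channel for macrophages and leukocytes. For red blood cells they were 23449 to 37241 in the Scriptaid-labelled channel and 28608 to 43150 in the Nullscript-labelled channel. Each of these markers passed the filter on dim probes, and their part in the ratios of the protease and inhibitor genes was not tested.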

How the data were processed

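Two-colour arrays of 3 biological replicates were analysed, each replicate on 2 arrays with the dyes exchanged. The deposited scanner files give, for each spot and channel, an intensity and a local background intensity, and the scanning software's log10 ratio of Cy5 over Cy3. Agilent Feature Extraction 9.1.3.1 made them, per the file headers. The authors also deposited a series table of log10 ratios, which equal the signed scanner ratios within 4.82e-06, with column medians of -0.00959 to -0.00136. Dyes were taken from the dye fields of the 6 arrays, although the series text counts 2 swapped arrays of 4.

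In R 4.3.3, limma 3.58.1 corrected mean intensities by normexp (offset 50) and then by loess, to which control spots gave no weight. Outlier-marked spots were left out and saturated ones kept. Both arrays of a replicate had to have a value and were averaged. Probes (39408 of 41174) were kept where 3 or more of the 6 arrays read them well above background for 1 of the drugs, and the brightest probe stood for its gene. Genes with at least 2 replicates were tested with lmFit and eBayes against 0 and Benjamini-Hochberg adjustment over 26489 genes. Levels are log2 intensities after loess and Aquantile. Probes took their current names through accession (22951), symbol (6659) or older symbol (3109), and 8455 stayed under the array's own name.

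The genes, lists and tests were chosen with earlier results of these data known. Values per replicate are given for genes with a mean log2 ratio of at least 1 or at most -1, the 3 highest and 3 lowest of each family, all Timp genes, Mmp2, Mmp9, Mmp14, Mmp15, Mmp16, Adam10, Adam17, Adamts1, Adamts4 and Adamts5, genes with saturated spots, and genes whose probes differ in sign with both past 0.3, 28 in all. From each partner list up to 3 called genes with the largest ratios are named, and Rhbdf1 was added after its values were seen. Every other gene of the set named in the text was added after its values were seen.

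The labels name the 2 arrays of a number as the same biological replicate, so numbers pair arrays. The deviations of paired arrays correlated at 0.61, 0.15 and -0.03 in replicates 1, 2 and 3. Those of arrays from different replicates correlated at -0.39 to 0.21, a range that holds the values of replicates 2 and 3. The pairing of replicates 2 and 3 thus rests on the labels. The fit was tested on simulated data with 200 changed genes among 26426. It recovered 14% of log2 changes of 0.25, 64% of 0.5, 88% of 1 and 100% of 2, with 3 false calls. Far fewer genes were changed there than were called in the data, so these shares do not carry over to the data. Alternatives covered background correction, normalization, filters, probe choice, slide, dye, replicate block and left-out replicates. Arrays give no counts, so 3 replicates limit the precision.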

Additional observations from a re-analysis of the deposited data

Results flagged for a closer look

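In 5 genes the ratio differed between the arrays with Scriptaid in Cy5 and those with Scriptaid in Cy3, by a limma test of the difference over the 3 replicates. The dye effect, 0.5 of the difference, was 0.2886 for Adamts20, 0.2088 for Mmp11, 0.1794 for Adam32, 0.1542 for Adamts7 and 0.1541 for Adamts19, each read higher in Cy5, with limma adjusted p of 0.00368, 0.016, 0.0187, 0.0459 and 0.038. All 3 replicates showed that direction in each gene. In Adamts20 the mean ratio was 0.28 with Scriptaid in Cy5 and -0.30 with Scriptaid in Cy3, and in Mmp11 0.44 and 0.03. The share of all genes with such an effect was 5.52%. These calls depend on the processing: the set held 1 such gene by the processed signals or the series table, 2 by the mean over probes, 3 by every probe or with the replicate block and 30 with median centring, and 1 without replicate 1 but 11 without replicate 2, where 7 more read higher in Cy3.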

How the results depend on the processing

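Of the values of the 28 named genes under the 16 alternatives, 406 kept their side of the threshold, and the called ones among them kept their direction. Uncalled ones among them could turn their sign by less than the SD of the replicates. Adam10, for example, ran from -0.044 to 0.050 and Adam17 from -0.157 to 0.051. A further 24 lost the call, 7 gained one, and 2 uncalled values of Timp3 turned their sign by more. The other 2 turned the sign of a called gene: Adam12 had -0.0256 with median centring in place of loess (limma adjusted p = 0.648), and Adamts16 had 0.34 with the mean over all probes (limma adjusted p = 0.000883), whose second probe opposes the first. Calls were lost for Adam12, Adam1a, Adamts2, Adamts16, Adamtsl5, Mmp16, Mmp28 and Timp2 under 1 or more alternatives. Mmp28 lost its call in 7 of the alternatives, the 3 left-out replicates among them, and Timp2 on the Cy3 arrays alone (0.38, limma adjusted p = 0.08). Timp2 gave no value without replicate 1 or 3, nor Timp3 without replicate 2 or 3, and neither with the slide as a block. With saturated spots left out Mmp14 gave no value. The series table repeats the processed signals, and the other filters on dim probes left the ratios of the named genes unchanged. The 406 values are thus not independent of each other.

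Leaving out each replicate gave 14 to 20 genes of the set higher in the Scriptaid-labelled channel and 7 to 11 higher in the Nullscript-labelled channel, beside 23 and 12, with 14 and 7 without replicate 3. Over all genes these counts were 4296 to 5685 and 3981 to 5688, the lowest ones without replicate 3. With every probe as its own feature 41 probes of the set and 9241 of all were higher in the Scriptaid-labelled channel.

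The dye effect rested on the processing. Of the set, 5 genes were higher in Cy5, against 1 by the processed signals, 1 by the series table, 2 by the mean over probes, 3 by every probe and 30 with median centring, which also called 14 higher in Cy3. Leaving out each replicate gave 1 to 11 in Cy5 and 0 to 7 in Cy3, the highest ones without replicate 2. Of all genes 1461 had a dye effect, against 477 by the processed signals or the series table, 823 by the mean over probes and 17611 with median centring. Leaving out each replicate gave 624 to 7395, the lowest without replicate 1 and the highest without replicate 2. The causes of these changes were not tested.

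The fit of 6 arrays with the replicate block (consensus correlation 0.0974) called 6300 genes higher in the Scriptaid-labelled channel and 6548 higher in the Nullscript-labelled channel, 24 and 13 of the set, and 3 of the set and 1431 of all for the dye. Among the 28 named genes the replicate block added calls for Adam11 and Mmp9 and changed no other call.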

Other observations

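Probes listed under other names on the array match 2 genes of these families in RefSeq. The probe named 5930437A14Rik has the accession of Adamtsl1 and had a ratio of 0.06 ± 0.05 (SD, n = 3). The name 9230119C12Rik is an older symbol of Adamtsl3, and its probe had 0.00 ± 0.03. The probes listed as Adamtsl1 and Adamtsl3 gave -0.03 and 0.03. The added probes were not called (limma adjusted p = 0.222 and 0.98 in that order).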
